A study of Rattus norvegicus with 399 samples.

Results

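Dbp, Nr1d2, Arntl and Npas2, 4 genes of the circadian clock, were followed in heart, kidney, liver, lung and ovary of female Sprague-Dawley rats, 9 weeks old, on study day 5 of an exposure to 1,4-dichlorobenzene (1,4-DCB) or 1,2-dichlorobenzene (1,2-DCB). The members were the probes whose gene symbol was one of these names in a TempO-Seq table of the Rat S1500+ panel. This gave 4 probes, 1 for each gene, of 2654 probes that carry 2603 symbols, and each passed the filter on low counts in all 10 fits of a tissue and a compound. TempO-Seq is a targeted assay: short detector oligonucleotides that anneal next to each other on a transcript are ligated, amplified and sequenced, so a count reports a fixed segment of that transcript rather than its whole length. The genes were selected on their differences between exposed and control rats in these same counts, so those differences are given as a description, without p-values.

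The compounds are isomers whose chlorine atoms stand opposite each other on the benzene ring in 1,4-DCB and side by side in 1,2-DCB. Rats of 1,4-DCB received 1, 10, 50, 150, 400 or 800 ppm and rats of 1,2-DCB received 1, 10, 30, 100, 250 or 500 ppm, and each compound had control rats of its own at 0 ppm. With 40 rats for each compound, groups held 5 exposed or 10 control rats, apart from losses in kidney and lung. After libraries marked by the submitters were left out, 9 controls remained in kidney of 1,2-DCB and 8 in lung of 1,4-DCB. Exposed groups of 4 were lung at 500 ppm of 1,2-DCB, kidney at 1 ppm of 1,4-DCB and lung at 1, 10 and 150 ppm of 1,4-DCB, and lung at 400 ppm of 1,4-DCB held 3. The liver piece came from the left lobe, and the tissues of a rat were collected in a set order soon after death, per the labels. The sources used here give neither the exposure route and hours nor the hour at which each rat was killed. A rat is named by the part of its sample title that recurs over its tissues, such as F301, and F8 of 1,4-DCB and F8 of 1,2-DCB are different animals.

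ARNTL, also called BMAL1, pairs with CLOCK or with its close relative NPAS2, and the pair switches on genes that carry E-box motifs. Nr1d2 is such a target and encodes the nuclear receptor REV-ERB beta, which represses Arntl and so closes a feedback loop. Dbp is another target and encodes a PAR bZIP transcription factor that binds D-box motifs in output genes, many of them metabolic genes of liver and kidney. In rodent tissues the transcripts of Dbp and Nr1d2 therefore peak at a time of day when those of Arntl and Npas2 are low.

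The promoter windows of the gene that represses and the gene that is repressed are shown because their transcripts moved in opposite directions. They are the 300 bases around a RefSeq start site of the rat build GRCr8, both on the plus strand, 5′ to 3′, and capitals mark the motifs AGGTCA and GGGTCA, which receptors of the REV-ERB and ROR families can bind. The window of Arntl (Bmal1 in RefSeq) is chr1:176766078-176766377 and that of Nr1d2 is chr15:9954784-9955083.
Arntl promoter: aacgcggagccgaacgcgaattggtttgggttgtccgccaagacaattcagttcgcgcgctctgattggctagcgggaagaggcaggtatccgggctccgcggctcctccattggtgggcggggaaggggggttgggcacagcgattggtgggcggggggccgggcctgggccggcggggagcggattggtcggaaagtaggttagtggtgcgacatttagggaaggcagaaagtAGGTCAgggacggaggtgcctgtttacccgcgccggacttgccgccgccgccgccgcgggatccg
Nr1d2 promoter: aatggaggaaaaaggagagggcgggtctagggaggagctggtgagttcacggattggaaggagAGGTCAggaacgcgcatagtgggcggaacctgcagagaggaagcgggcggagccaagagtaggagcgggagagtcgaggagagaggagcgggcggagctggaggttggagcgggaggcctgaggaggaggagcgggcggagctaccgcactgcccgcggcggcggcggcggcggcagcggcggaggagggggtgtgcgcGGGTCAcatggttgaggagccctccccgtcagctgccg
Both strands of the 4 promoters were searched for the E-box CACGTG and its variant with the letters CACGTT, for the receptor motifs AGGTCA and its variant GGGTCA, and for the D-box written as TTATGTAA or in the palindromic form TTACGTAA. No 2 matches overlapped. Counted from the start site, AGGTCA began at -15 in Arntl and at -187 in Nr1d2, and GGGTCA began at 13 in Nr1d2. None of these letters was found in the windows of Dbp (chromosome 1) and Npas2 (chromosome 9). The window of Npas2 (chr9:48959315-48959614) begins downstream of the start of the gene in RefSeq, at base 48959225. The bases before that start were not searched. Over 33469 rat promoters of the same length, the motif AGGTCA was present in 16.2% and its variant in 13.8%, the E-box in 6.42% and its variant in 4.83%, and the D-box in 0.893% for the first form and 0.12% for the palindrome.

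Totals of the 390 libraries used, of 399, ran from 1.202 to 69.8 M counts (M, counts in units of 10 to the power 6). Marker genes fixed for each tissue were highest in their own tissue in 3 of 3 for heart muscle, 2 of 2 for kidney tubule, 7 of 7 for hepatocytes and 6 of 6 for ovary, whereas none of the 6 listed markers of lung epithelium is on the panel, so the lung label was not checked. Levels below are CPM, a probe's counts per M counts of its library, after library totals were adjusted by TMM factors over all libraries used. A level is compared between samples for the same gene and never between genes, because probes differ in efficiency. A change is a log2 fold change ± SE from the edgeR quasi-likelihood fit of that tissue and compound, and calls are those probes whose p, after Benjamini-Hochberg adjustment over all probes tested, was below 0.05.

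Dbp, the output gene, was higher than in controls at the top concentration of both compounds in each of the 5 tissues, and by most in lung. In lung at 800 ppm of 1,4-DCB it stood at 356, 311, 298, 466 and 358 CPM in the 5 exposed rats, against 15.9 to 23.5 CPM (median 21.8) in 8 controls. No exposed lung came near a control lung, and the log2 change was 4.06 ± 0.15, a 16.6-fold difference. In lung at 500 ppm of 1,2-DCB it stood at 195, 360.3, 297 and 262 CPM in 4 exposed rats, against 15.3 to 35.2 CPM (median 21.6) in 10 controls (3.54 ± 0.39). The groups again did not overlap. In a bulk tissue, a change in the number of cells of a type and a change in RNA per cell cannot be told apart.

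In kidney at 800 ppm of 1,4-DCB, Dbp reached 894, 831, 801, 777 and 722 CPM, against 73.9 to 126.1 CPM (median 91.4) in 10 controls, a log2 change of 3.05 ± 0.14. In heart it was 787, 553, 581, 556 and 589 CPM at 800 ppm, against 50.5 to 155.1 CPM (median 76.97) in controls (2.70 ± 0.23). The ovaries held 294, 274, 319, 386 and 261 CPM, against 54.3 to 122.1 CPM (median 81.3) in controls (1.87 ± 0.22). All 15 of these exposed samples lay above every control of their tissue. Liver moved least, with 62.4, 45.2, 55.3, 53.8 and 41.7 CPM at 800 ppm, against 10.3 to 36.9 CPM (median 21.2) in controls, a change of 1.299 ± 0.15 without overlap.

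At 500 ppm of 1,2-DCB the liver ranked beside the lung for Dbp. Exposed livers held 341, 190.2, 223, 197 and 75.4 CPM, against 16.5 to 39.2 CPM (median 21.5) in 10 controls, a log2 change of 3.35 ± 0.30. Each exposed liver was above every control, although rat F605 was well below the other 4. Hearts held 682, 468, 645, 426 and 419.9 CPM, against 69.5 to 317 CPM (median 149.4) in controls (1.74 ± 0.37). Kidneys held 625, 439, 724, 484 and 409 CPM, against 87.2 to 318 CPM (median 132.1) in 9 controls (1.87 ± 0.36). Neither tissue overlapped with its controls, even though control rat F8 had the highest Dbp of its group in both. In ovary, 339, 284, 353, 292 and 253 CPM at 500 ppm stood against 61.4 to 273 CPM (median 114.9) in controls (1.15 ± 0.29), and the lowest exposed ovary was below the highest control. That call in ovary ended without rat F603 (1.11) or rat F604 (1.16).

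Nr1d2, the repressor, moved with Dbp but less. In lung at 800 ppm of 1,4-DCB it was 82.4, 67.4, 68.2, 83.7 and 82.7 CPM, against 11.1 to 24.1 CPM (median 17.1) in 8 controls (2.14 ± 0.20). In lung at 500 ppm of 1,2-DCB it was 67.9, 81.1, 60.95 and 56.2 CPM, against 11.8 to 33.6 CPM (median 25.8) in 10 controls (1.51 ± 0.27). Exposed and control lungs did not overlap for either compound. Kidneys at 800 ppm held 106.5, 101.3, 94.3, 91.1 and 101.1 CPM, against 18.4 to 48.3 CPM (median 36.3) in controls (1.59 ± 0.16), and kidneys at 500 ppm of 1,2-DCB held 76.5 to 105.4 CPM, against 29.1 to 62.9 CPM in controls (1.09 ± 0.17).

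Nr1d2 in the other tissues changed by 1.10 ± 0.14 in heart, 0.91 ± 0.19 in ovary and 0.89 ± 0.23 in liver at 800 ppm of 1,4-DCB. The 5 exposed hearts and the 5 exposed ovaries were above every control, and 3 of 5 exposed livers were. At 500 ppm of 1,2-DCB the changes were 0.83 ± 0.16 in heart, with 5 of 5 rats above every control, and 1.07 ± 0.22 in liver, with 4 of 5. In ovary at 500 ppm the change of 0.65 ± 0.22 was not called, and 1 of 5 rats was above every control.

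Arntl, the activator, was lower than in controls at the top concentrations. At 800 ppm of 1,4-DCB the kidneys held 5.25, 4.05, 5.68, 2.65 and 5.80 CPM, against 37.3 to 78.3 CPM (median 49.4) in 10 controls, a log2 change of -3.47 ± 0.20. Hearts held 6.87, 8.23, 6.09, 7.68 and 6.94 CPM, against 45.9 to 82.3 CPM (median 59.4) in controls (-3.16 ± 0.21). Lungs held 6.80, 5.94, 8.96, 5.79 and 4.70 CPM, against 37.9 to 92.3 CPM (median 41.5) in 8 controls (-2.92 ± 0.19). In these tissues every exposed rat lay far below every control. Ovaries held 43.2, 25.1, 22.4, 24.6 and 26.9 CPM, against 45.01 to 74.2 CPM in controls (-1.13 ± 0.23), with rat F601 close under the lowest control. Livers held 32.2, 41.6, 36.3, 41.8 and 61.02 CPM, against 60.4 to 79.6 CPM in controls (-0.65 ± 0.12), and 4 of 5 were below every control.

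At 500 ppm of 1,2-DCB Arntl stood at 4.98, 6.23, 2.91, 8.29 and 10.1 CPM in heart, against 24.2 to 103.3 CPM (median 41.5) in controls (-2.88 ± 0.44). In lung it was 8.79, 4.69, 8.48 and 8.02 CPM, against 26.9 to 44.98 CPM in controls (-2.29 ± 0.23). In kidney it was 4.54 to 10.8 CPM, against 21.7 to 44.9 CPM in controls (-2.12 ± 0.28), and in liver 15.5 to 32.1 CPM, against 47.3 to 111.9 CPM in controls (-1.42 ± 0.17). Exposed and control rats did not overlap in these 4 tissues. The ovary stood apart, with 32.2 to 58.3 CPM in exposed rats inside the 23.2 to 62.02 CPM of controls, and its change of -0.17 ± 0.22 was not called.

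Npas2, the relative of CLOCK that partners ARNTL, was also lower, with its largest changes in kidney and liver under 1,2-DCB and in kidney and heart under 1,4-DCB. In kidney at 500 ppm of 1,2-DCB it was 1.27, 2.24, 1.28, 1.09 and 3.10 CPM, against 12.7 to 26.5 CPM (median 16.8) in 9 controls (-3.25 ± 0.30). The lowest of these levels rests on 47 counts. In liver it was 2.51, 3.51, 2.08, 2.78 and 4.13 CPM, against 20.9 to 33.4 CPM (median 25.9) in controls (-2.95 ± 0.21), on 18 to 43 counts per exposed library. Exposed and control rats did not overlap in either tissue, nor in heart (-2.20 ± 0.28) or lung (-2.32 ± 0.17). In ovary 13.3 to 21.5 CPM at 500 ppm overlapped with 15.7 to 32.8 CPM in controls, and the change of -0.48 ± 0.17 was not called.

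At 800 ppm of 1,4-DCB Npas2 was 3.44, 4.32, 2.56, 1.04 and 2.98 CPM in kidney, against 14.7 to 30.3 CPM (median 20.8) in controls (-2.99 ± 0.26). Heart changed by -2.20 ± 0.19, lung by -1.88 ± 0.11, liver by -1.02 ± 0.14 and ovary by -0.55 ± 0.13. In each of the 5 tissues the 5 exposed rats lay below every control.

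**Figure D1:**
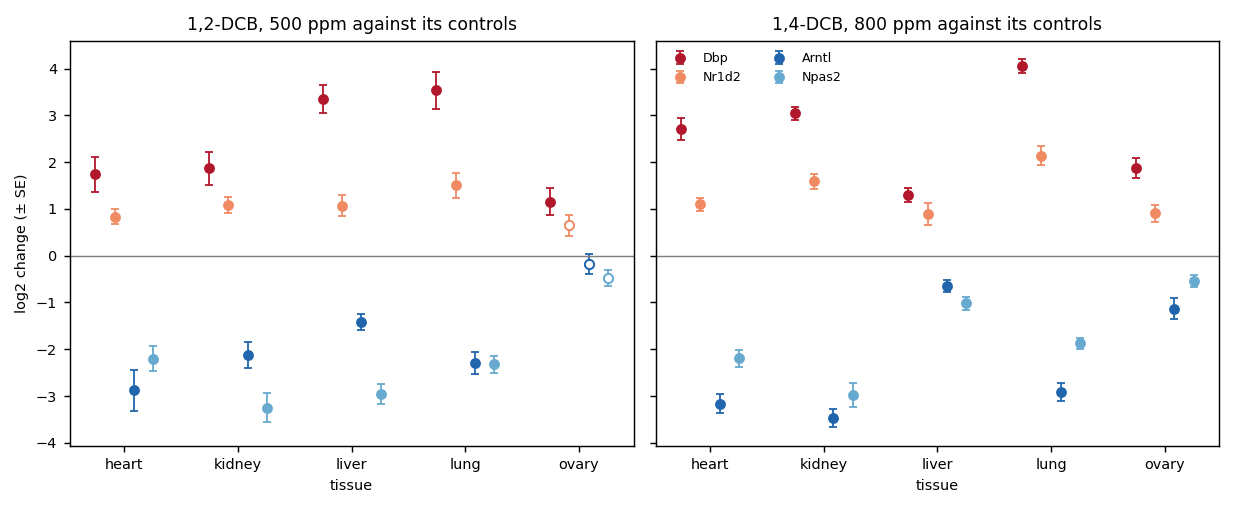
Log2 change against a compound's own controls (vertical axis, ± SE of the edgeR fit) of the 4 clock genes in 5 tissues (horizontal axis), at 500 ppm of 1,2-DCB on the left and 800 ppm of 1,4-DCB on the right. Filled points were called and open points were not. Dbp and Nr1d2 are above 0 and Arntl and Npas2 below 0 in every tissue, and the ovary of 1,2-DCB holds the 3 open points.

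In all, 20 of 20 combinations of member and tissue were called at 800 ppm of 1,4-DCB and 17 of 20 at 500 ppm of 1,2-DCB. Of all probes tested at 800 ppm of 1,4-DCB, 6.86% were called in heart, 5.03% in kidney, 34.9% in liver, 5.91% in lung and 8.47% in ovary. At 500 ppm of 1,2-DCB these shares were 12% in heart, 16.4% in kidney, 67.8% in liver, 8.85% in lung and 2.91% in ovary. Since the members were chosen with these contrasts known, nothing is read from their share of calls or from their lack of overlap with controls. The share of all probes without such overlap was not counted. With plain library totals in place of TMM factors, the median of all probes moved by 0.40 in liver and -0.12 in kidney at 500 ppm of 1,2-DCB and by -0.16 in lung at 800 ppm of 1,4-DCB, and each call of a member at the top concentrations remained, in the same direction.

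Markers of other cell types changed in some of the same samples. Of the listed markers of neutrophils, lymphocytes, endothelium and adipocytes that were tested, 6 of 7 fell and none rose in liver at 500 ppm of 1,2-DCB, 3 of 8 fell in heart, and 1 rose and 2 fell of 9 in kidney. In lung and ovary at 500 ppm 0 of 9 were called. At 800 ppm of 1,4-DCB, 1 of 7 fell in heart, 2 of 9 fell in kidney, 2 of 7 fell in liver, and 1 of 9 rose in lung and in ovary. Of 7 hepatocyte markers, 6 fell and 1 rose in liver at 500 ppm, 2 rose in heart, 1 rose in kidney and in lung, and 1 fell in ovary. At 800 ppm 3 of the 7 fell and 1 rose in liver, 4 fell in heart, 1 rose and 1 fell in ovary, and 0 were called in kidney and lung. The 4 in heart were Alb (-4.99), Serpina1 (-5.91), Fga (-4.37) and Apoa1 (-2.88), and the summed level of the 7 markers ran from 1573 to 1996 CPM in exposed hearts, against 1242 to 4378 CPM (median 1616) in control hearts. In ovary at 800 ppm 2 of 6 ovary markers rose, Lhcgr, the receptor of luteinizing hormone, by 1.82 and Star, which carries cholesterol to steroid synthesis, by 0.71. In heart 1 of 3 muscle markers fell at 500 ppm, Actc1 (-0.52), and 0 of 3 were called at 800 ppm. Neither of 2 kidney tubule markers was called in kidney. Their part in the levels of the clock genes was not tested.

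Below the top concentration, 3 of 100 combinations of member, tissue and concentration were called for 1,2-DCB and 2 of 100 for 1,4-DCB. Of all probes tested over these concentrations and tissues, 1.22% were called for 1,2-DCB and 0.243% for 1,4-DCB. In liver at 250 ppm of 1,2-DCB, Arntl was 31.3 to 48.5 CPM, against 47.3 to 111.9 CPM in controls (-0.65 ± 0.16), and Npas2 was 12.3 to 19.9 CPM, against 20.9 to 33.4 CPM (-0.68 ± 0.18). Here 24.8% of all probes were called, and both calls ended with plain library totals, where the changes were -0.32 for Arntl and -0.36 for Npas2.

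Dbp was the only probe called in lung at 30 ppm of 1,2-DCB, where 0.0434% of those tested were called (2.08 ± 0.37). Its levels there were 18.3 and 21.7 CPM in rats F301 and F302, inside the controls, and 88.4, 182 and 185 CPM in rats F303, F304 and F305, above every control at 15.3 to 35.2 CPM. The call ended without rat F304 (1.75), without rat F305 (1.71), and when only this group and its controls entered the fit.

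The same rats stood apart in other tissues. In heart, Dbp was 118.9 and 153.7 CPM in rats F301 and F302 but 372, 515 and 750.2 CPM in rats F303, F304 and F305, against 69.5 to 317 CPM in controls. In kidney it was 99.9 and 126.4 CPM in rats F301 and F302 but 359, 569.6 and 574 CPM in rats F303, F304 and F305, against 87.2 to 318 CPM in controls. Dbp was above every control in 3 of 5 tissues of rat F303, 4 of rat F304 and 5 of rat F305, and in none of rats F301 and F302.

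Arntl and Npas2 were low in these rats. In heart, Arntl was 15.02, 12.6 and 8.53 CPM in rats F303, F304 and F305, and 60.7 and 44.4 CPM in rats F301 and F302, against 24.2 to 103.3 CPM in controls. It was below every control in heart, kidney and lung of rats F303, F304 and F305, while all 5 livers of the group stood between 48.6 and 61.2 CPM, inside the controls. Npas2 in kidney was 10.1, 6.19 and 4.96 CPM in rats F303, F304 and F305, and 20.1 and 17.3 CPM in rats F301 and F302, against 12.7 to 26.5 CPM in controls. Nr1d2 in lung was 37.96, 50.5 and 55.97 CPM in rats F303, F304 and F305, and 19.7 and 20.4 CPM in rats F301 and F302, against 11.8 to 33.6 CPM in controls. These differences between rats of 1 group were found in their values, so they are a description of 5 rats and carry no test.

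**Figure D2:**
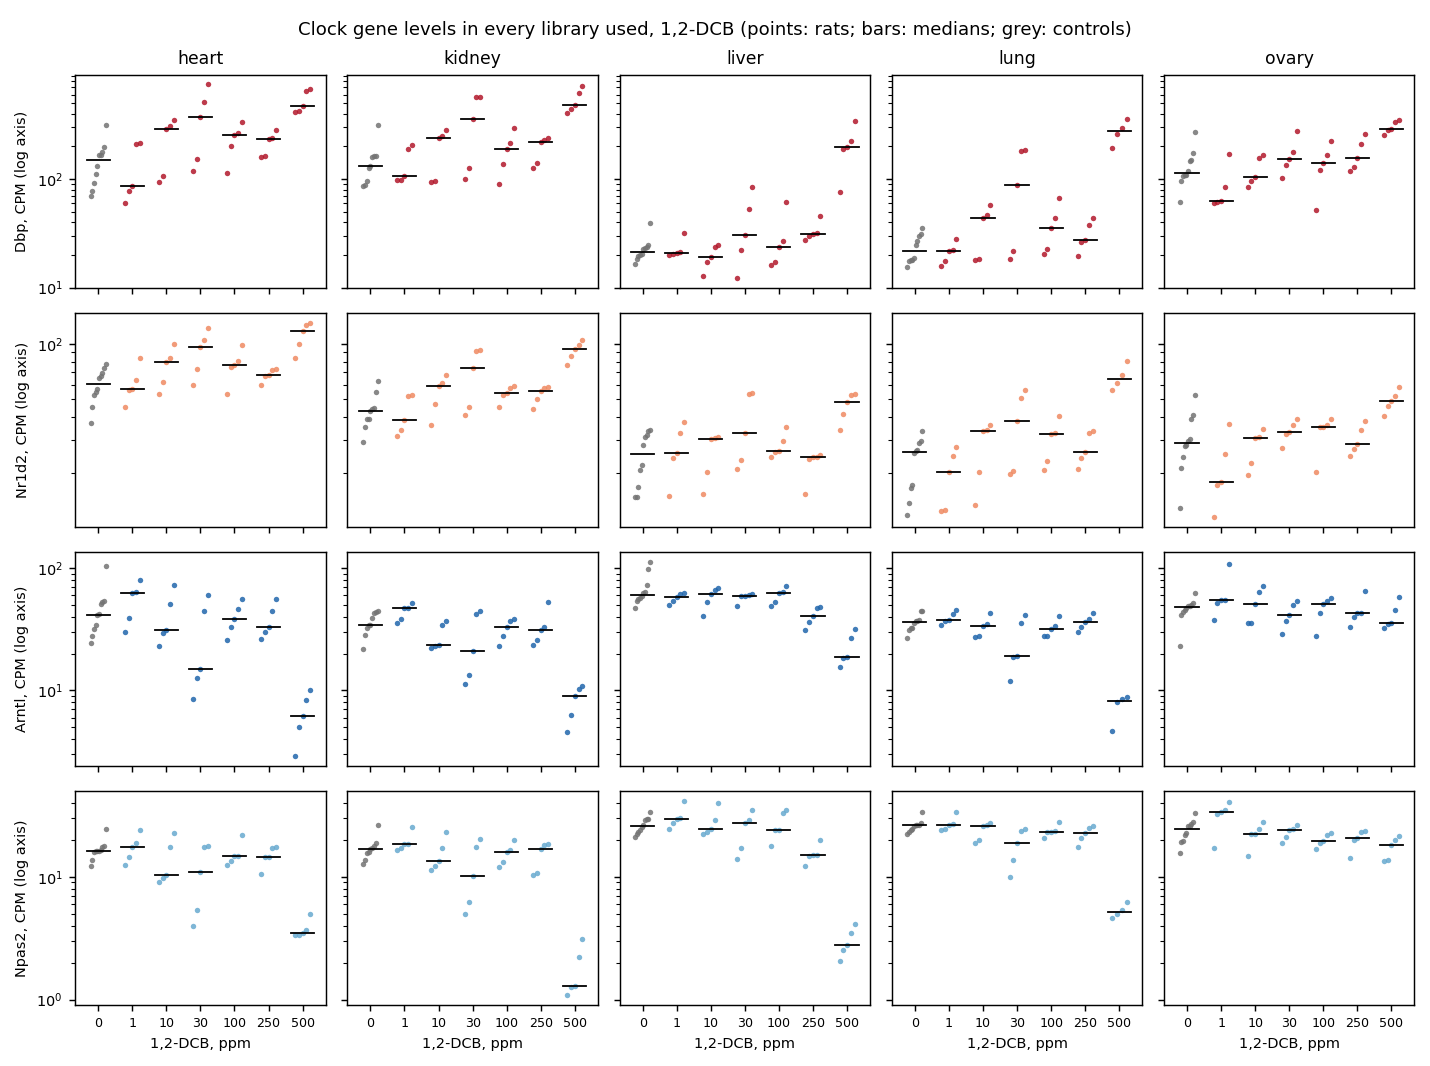
Level in CPM (vertical axis, logarithmic) of each clock gene in every library used, against the concentration of 1,2-DCB in ppm (horizontal axis), by tissue. Points are rats in order of their values, bars are medians and grey points are controls. Dbp at 500 ppm is above the control median in every exposed rat of each tissue. In heart, kidney and lung the groups at 10 and at 30 ppm each hold 3 rats whose Dbp stands apart from the other 2.

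In kidney at 400 ppm of 1,4-DCB, Dbp was 168, 146.5, 117.7, 280.2 and 183 CPM in rats F501 to F505, against 73.9 to 126.1 CPM in controls (0.88 ± 0.14), with all but rat F503 above every control. Nr1d2 was 50.5, 55.7, 38.3, 67.02 and 55.96 CPM in the same kidneys, against 18.4 to 48.3 CPM in controls (0.70 ± 0.16). Of all probes in this comparison, 0.215% were called. The call of Nr1d2 ended without control rat F1 (0.64), F2 (0.66), F3 (0.65) or F8 (0.66), without exposed rat F501 (0.73), F502 (0.69), F504 (0.61) or F505 (0.69), with plain library totals (0.62) and with only this group and its controls in the fit.

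In heart at 400 ppm, Dbp stood at 199.6, 169, 105.6, 216 and 174 CPM in rats F501 to F505, against 50.5 to 155.1 CPM in controls, a change of 0.87 ± 0.24 that was not called. Rat F503 was inside the controls and the other 4 were above them. Arntl in kidney was 31.6, 36.3, 46.8, 19.9 and 29.6 CPM in rats F501 to F505, against 37.3 to 78.3 CPM in controls (-0.66 ± 0.16), and again rat F503 alone was inside the controls. This change was not called either.

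**Figure D3:**
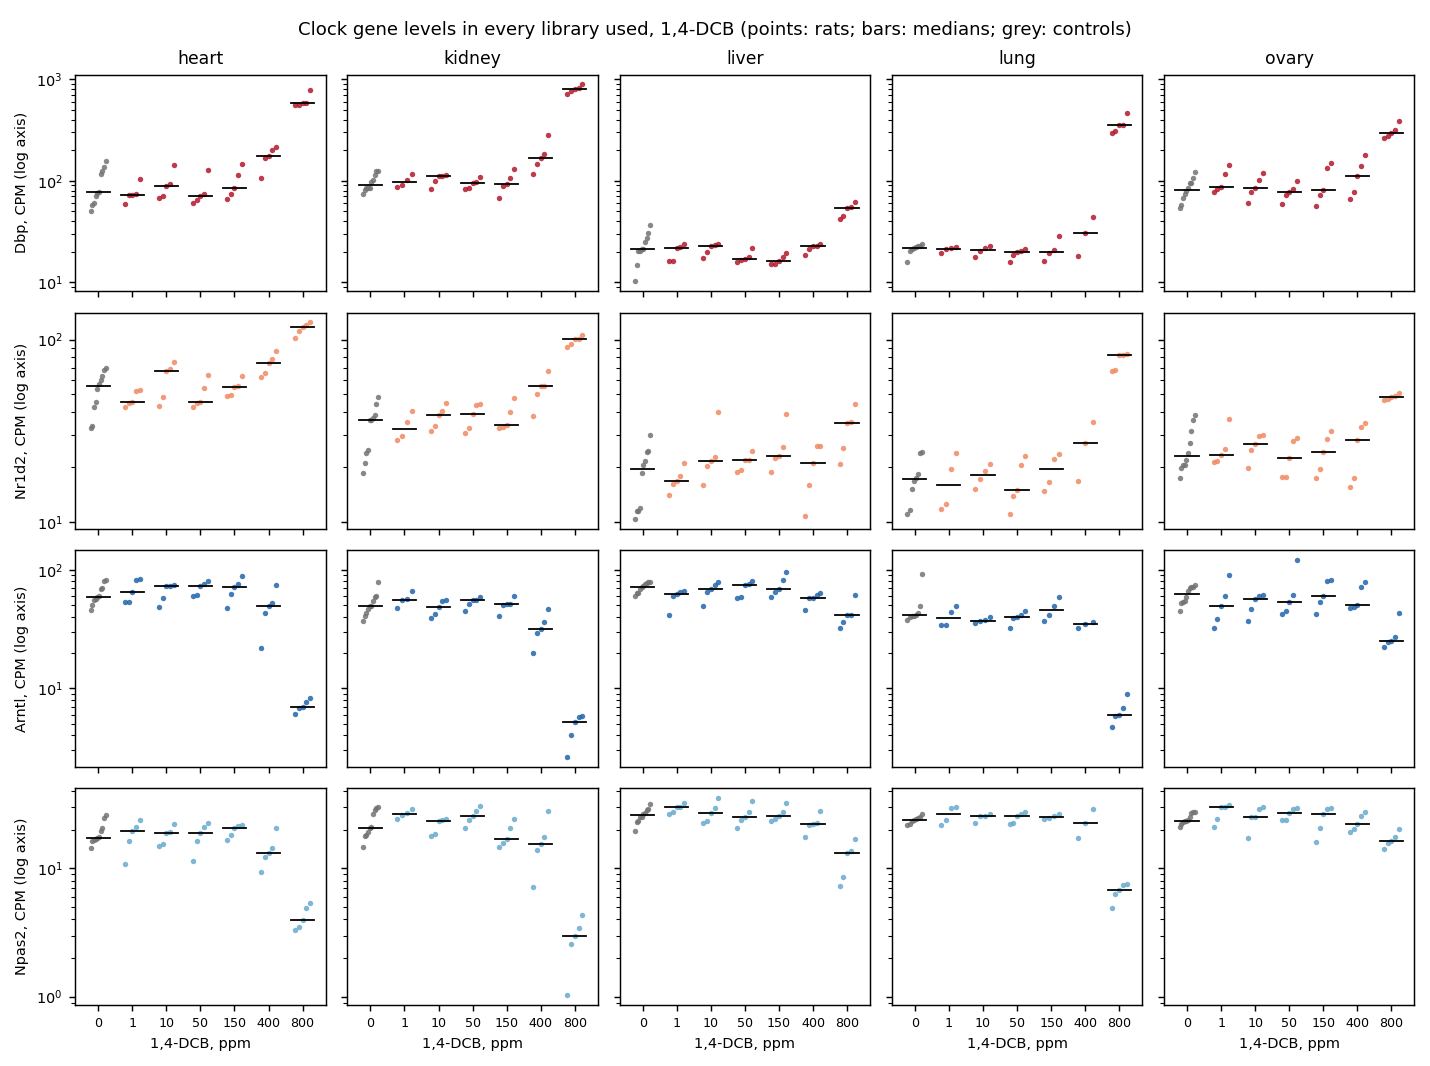
Level in CPM (vertical axis, logarithmic) of each clock gene in every library used, against the concentration of 1,4-DCB in ppm (horizontal axis), by tissue. Points are rats in order of their values, bars are medians and grey points are controls. The 5 kidneys at 800 ppm hold 722 to 894 CPM of Dbp, against 73.9 to 126.1 CPM in controls, and those from 1 to 150 ppm hold 66.8 to 130.1 CPM.

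The response of the liver was set beside that of the other tissues by subtracting the log2 change of each other tissue from that of liver, in a joint edgeR fit of all tissues. These differences are built from the changes on which the genes were selected, so they are a description and carry no test. At 800 ppm of 1,4-DCB the estimated change in liver was smaller than in heart, kidney and lung for each of the 4 genes. For Nr1d2 against heart the difference was close to its SE (-0.34 ± 0.28). For Dbp the difference was -2.92 ± 0.29 against lung, -1.88 ± 0.28 against kidney and -1.55 ± 0.28 against heart. For Arntl it was 2.70 ± 0.26 against kidney, 2.38 ± 0.26 against heart and 2.13 ± 0.26 against lung, the positive sign standing for a smaller decrease in liver.

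Npas2 was less decreased in liver than in kidney by 1.85 ± 0.24, than in heart by 1.046 ± 0.24 and than in lung by 0.71 ± 0.24. For Nr1d2 the liver difference was -1.40 ± 0.28 against lung, -0.82 ± 0.28 against kidney and -0.34 ± 0.28 against heart, that against kidney being -0.57 with plain library totals. Against ovary it was -0.72 ± 0.27 for Dbp and -0.60 ± 0.23 for Npas2, so Dbp increased less and Npas2 decreased more in liver than in ovary, and it was 0.34 ± 0.25 for Arntl and -0.15 ± 0.28 for Nr1d2. At 400 ppm the difference for Dbp was -0.95 ± 0.28 from heart and -0.95 ± 0.28 from kidney.

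At 500 ppm of 1,2-DCB some of these differences had the other sign. Dbp was further above its controls in liver than in ovary by 2.05 ± 0.51, than in heart by 1.41 ± 0.51 and than in kidney by 1.34 ± 0.51, and the difference from lung was -0.37 ± 0.52. Without rat F601 the differences of Dbp were 1.23 against heart and 1.12 against kidney. Npas2 was further below its controls in liver than in ovary (-2.64 ± 0.31), heart (-0.96 ± 0.32) and lung (-0.82 ± 0.32), the last 2 being -0.32 and -0.22 with plain library totals. For Arntl the difference was 1.25 ± 0.37 against heart, a smaller decrease in liver, and -1.41 ± 0.36 against ovary, a larger one, with -0.85 against ovary on plain totals. The remaining differences were 0.55 ± 0.36 against kidney and 0.68 ± 0.38 against lung for Arntl, 0.14 ± 0.32 against kidney for Npas2, and -0.61 to 0.27 for Nr1d2.

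At the 2 highest concentrations together, 15 of 32 such differences were past 0.05 for 1,4-DCB and 8 of 32 for 1,2-DCB. Over all probes, 15.7% were past it at 800 ppm and 2.24% at 400 ppm of 1,4-DCB, and 39.8% at 500 ppm and 8.93% at 250 ppm of 1,2-DCB. Because the members were chosen on these changes, nothing is read from their counts.

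The compounds were compared at 1 and 10 ppm, the concentrations they share, as the change under 1,4-DCB minus that under 1,2-DCB. None of the 40 differences of a member in a tissue was called by edgeR or by DESeq2, 1 had an unadjusted p below 0.05, and the smallest adjusted p was 0.812. Differences ran from -0.69 to 0.91. The 95% intervals reached as far as -1.58 and 1.66, both for Dbp, so large differences of Dbp could be missed. Some intervals were narrower, such as -0.41 to 0.38 for Arntl in liver and -0.29 to 0.45 for Npas2 in lung, both at 1 ppm. Over all probes 0.207% were called. The top concentrations, 800 ppm of 1,4-DCB and 500 ppm of 1,2-DCB, are not matched. Side by side, the change of Dbp was 1.299 at 800 ppm and 3.35 at 500 ppm in liver, and that of Npas2 was -1.02 at 800 ppm and -2.95 at 500 ppm. In ovary, Arntl changed by -1.13 at 800 ppm and by -0.17 at 500 ppm.

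Control rats of 1,4-DCB and 1,2-DCB were also set against each other. In heart Dbp averaged 92.7 ± 37.4 CPM in controls of 1,4-DCB and 151.3 ± 73.4 CPM in controls of 1,2-DCB (SD, n = 10 each), a difference of -0.72 with a 95% interval from -1.24 to -0.19 (adjusted p = 0.137, edgeR). Arntl in kidney averaged 51.8 ± 11.9 CPM in 10 controls of 1,4-DCB and 35.8 ± 7.69 CPM in 9 controls of 1,2-DCB, a difference of 0.53 with an interval from 0.18 to 0.88 (adjusted p = 0.542). The estimates of Dbp and Nr1d2 were lower and those of Arntl higher in controls of 1,4-DCB in each of the 5 tissues, which come from the same rats. Within their SE were Dbp in liver (-0.0073 ± 0.21) and lung (-0.18 ± 0.26) and Arntl in liver (0.075 ± 0.12). None of the 20 differences was called by edgeR or DESeq2, and 9 had an unadjusted p below 0.05. Over all probes, 2.95% were called in heart, 0% in kidney, 0.67% in liver, 1.31% in lung and 0.631% in ovary. In kidney this was 0 of 2383 by edgeR, with 140 probes at an unadjusted p below 0.05. Rats of the compounds are separate animals, so compound and the set of rats cannot be told apart.

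Levels in control rats differed between tissues, as tested in a joint edgeR fit of the 5 tissues of a compound. Dbp was high in heart, kidney and ovary and low in liver and lung. In controls of 1,4-DCB it averaged 92.7 ± 37.4 CPM in heart, 97.3 ± 18.3 CPM in kidney and 83.3 ± 21.6 CPM in ovary, beside 22.7 ± 7.59 CPM in liver (SD, n = 10 each) and 21.3 ± 2.40 CPM in lung (n = 8). In controls of 1,2-DCB it averaged 151.3 ± 73.4 CPM in heart, 148.03 ± 70.8 CPM in 9 kidneys, 134.7 ± 57.97 CPM in ovary, 22.8 ± 6.31 CPM in liver and 23.5 ± 6.95 CPM in lung (n = 10 unless given). Heart and kidney exceeded liver and lung by log2 differences of 2.05 to 2.78, and liver and lung over ovary gave -2.64 to -1.86. These differences kept their direction and their call with size factors of DESeq2 and with plain library totals, and the largest adjusted p with TMM factors was 8.02e-12 (edgeR). The difference between heart and kidney was not called, at -0.04 ± 0.18 in 1,4-DCB and 0.03 ± 0.24 in 1,2-DCB. Ovary did not differ from them with TMM factors but was higher with plain totals, by 0.73 over kidney and 0.90 over heart in 1,4-DCB.

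Nr1d2 was highest in heart with TMM factors. It averaged 52.7 ± 13.5 CPM in heart, 32.9 ± 10.2 CPM in kidney, 25.8 ± 7.33 CPM in ovary, 18.5 ± 6.86 CPM in liver and 17.3 ± 4.89 CPM in lung of the controls of 1,4-DCB. Heart exceeded liver by 1.52 ± 0.20 (adjusted p = 2.79e-09) in 1,4-DCB and by 1.33 ± 0.20 (adjusted p = 6.93e-08) in 1,2-DCB. Heart over lung and kidney over liver were called in both compounds under all 3 scalings. The place of the ovary was not stable, since with plain totals heart over ovary changed to -0.028 in 1,4-DCB and to 0.0713 in 1,2-DCB, neither of them called.

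Npas2 was lower in heart than in lung and ovary under all 3 scalings in both compounds, with TMM differences from -0.65 to -0.33. The place of the liver for Arntl and Npas2 depended on the scaling. With TMM factors Arntl was highest in liver, at 71.5 ± 6.84 CPM in controls of 1,4-DCB beside 48.3 to 63.02 CPM on average elsewhere, and liver exceeded lung by 0.52 ± 0.14 (adjusted p = 0.00102). With plain library totals it was lowest there, at 11.8 ± 1.13 CPM beside 64.2 to 146.7 CPM on average elsewhere, and liver over lung was -3.00. Npas2 behaved likewise, with heart over liver at -0.43 with TMM factors and 2.33 with plain totals. In all, 22 of 40 differences of a member between control tissues were called in 1,4-DCB and 24 of 40 in 1,2-DCB, where 76.7% and 77.5% of all probes were called, so a call between tissues is the common case on this panel.

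**Figure D4:**
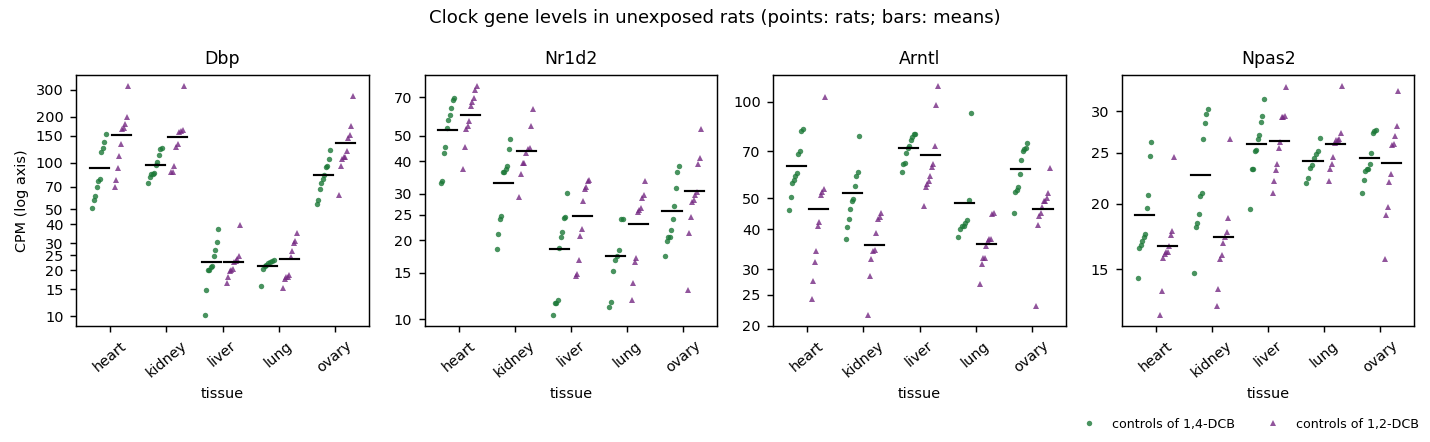
Level in CPM (vertical axis, logarithmic, TMM scale) of each clock gene in unexposed rats by tissue (horizontal axis), with controls of 1,4-DCB as circles and controls of 1,2-DCB as triangles. Points are rats in order of their values and bars are means. Dbp is low in liver and lung and high in heart, kidney and ovary in both sets of controls, and the place of liver for Arntl and Npas2 is that of the TMM scale and turns round with plain library totals.

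Since the 5 tissues came from the same rats, it was asked whether a rat that was high in 1 tissue was high in another. Group means were removed from log2 CPM, and the remainders were correlated across rats, with a permutation test within groups and Benjamini-Hochberg adjustment over 80 relations. Past 0.05 were 46 of 80 by Pearson r and 47 by Spearman rho, 30 of 40 in 1,2-DCB and 16 of 40 in 1,4-DCB by Pearson r. The difference between the compounds was not tested. Nor was the permutation test run on all probes, so no share of them stands beside these counts. In unexposed rats alone 31 of the 80 passed. The smallest p that the permutations can give is 1e-05, before adjustment.

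Dbp in 1,2-DCB agreed between every pair of tissues. Heart and kidney had r = 0.943 and rho = 0.944 over 39 rats (adjusted p = 3.48e-05 by permutation, r = 0.932 without rats F201 and F301, the farthest from the median). Kidney and lung had r = 0.907 and rho = 0.910 over 38 rats (adjusted p = 3.48e-05 by permutation). The lowest of the 10 was liver and ovary with r = 0.644 (rho = 0.674, 40 rats, adjusted p = 3.48e-05 by permutation, 0.593 without rats F301 and F305). Control rat F8 is an example, with the highest Dbp of its group in each tissue, at 317 CPM in heart, 318 CPM in kidney, 273 CPM in ovary, 39.2 CPM in liver and 35.2 CPM in lung. The same rat had 27.6 CPM of Arntl in heart, 21.7 CPM in kidney and 23.2 CPM in ovary, near or at the lowest of the controls, but 111.9 CPM in liver, the highest there.

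In 1,4-DCB Dbp agreed among heart, kidney and ovary, with r = 0.750 for heart and ovary over 40 rats (rho = 0.716, adjusted p = 3.48e-05 by permutation), 0.691 for heart and kidney and 0.652 for kidney and ovary. Liver had r = -0.336 against heart (rho = -0.219), -0.0716 against kidney and 0.00398 against lung, none past 0.05. Lung was not past 0.05 by Pearson r with heart (0.291), kidney (0.449) or ovary (0.366) either, though by Spearman rho it was with kidney (0.44). Nr1d2 agreed between all 10 pairs in both compounds. In 1,4-DCB its r ran from 0.588 for liver and ovary to 0.852 for lung and ovary, and in 1,2-DCB from 0.496 for liver and ovary to 0.915 for kidney and lung.

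Arntl agreed between heart and kidney, with r = 0.838 over 39 rats in 1,2-DCB (adjusted p = 3.48e-05 by permutation, 0.830 without rats F2 and F301) and r = 0.550 over 39 rats in 1,4-DCB (adjusted p = 0.00512 by permutation, 0.342 without rats F503 and F504). It did not in any pair with liver, where r ran from -0.101 to 0.271 over both compounds. Npas2 agreed for kidney and liver in 1,2-DCB (r = 0.762, rho = 0.7095, 39 rats, adjusted p = 6.15e-05 by permutation) and for kidney and lung in 1,4-DCB (r = 0.674, rho = 0.607, 32 rats, adjusted p = 0.00222 by permutation). Of the 80 relations, 7 changed sign without the 2 rats farthest from the median.

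As a description, the median r over the 10 pairs of tissues was set beside that of the 1774 probes tested in every fit. In 1,2-DCB it was 0.774 for Nr1d2, 0.773 for Dbp, 0.490 for Npas2 and 0.267 for Arntl. Their ranks from the top lay at 0.958% of the probes for Nr1d2, 1.01% for Dbp, 2.82% for Npas2 and 7.61% for Arntl, and the median probe had 0.0543. In 1,4-DCB it was 0.745 for Nr1d2, 0.328 for Dbp, 0.156 for Arntl and 0.132 for Npas2, with ranks at 1.24%, 5.64%, 22.4% and 27.7% of the probes, and the median probe had 0.0679. With the libraries marked by the submitters included, the value of Dbp in 1,4-DCB was -0.0011. Ranked above them are probes such as Cltc (0.986 in 1,2-DCB and 0.977 in 1,4-DCB), LOC688090 (0.981 in each) and RT1-A2, a class I histocompatibility gene (0.978 and 0.976), which shows that libraries with the same rat number match across tissues. Libraries of liver and lung shared a sample number in the labels in 80 of 80 rats and those of heart and kidney in 40 of 79. No other pair of tissues did, but in 1,2-DCB their numbers followed the same order of rats with a shift. A shared place in that order and the rat itself therefore cannot be told apart.

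**Figure D5:**
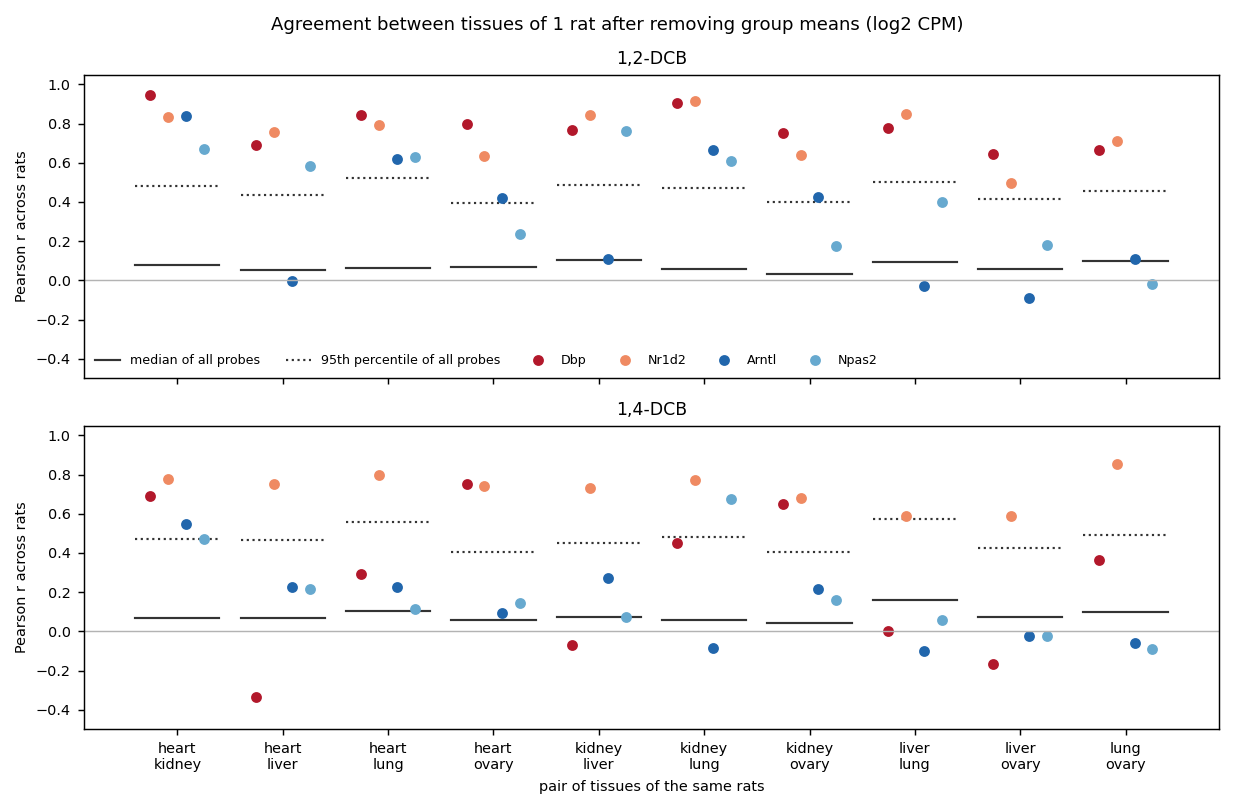
Pearson r across rats (vertical axis) between the levels of a clock gene in a pair of tissues (horizontal axis), after group means were removed, for 1,2-DCB above and 1,4-DCB below. Lines mark the median and the 95th percentile of 1774 probes for that pair. In 1,2-DCB each Dbp and Nr1d2 point is above the dotted line, and in 1,4-DCB Nr1d2 is above it in every pair and Dbp in heart with kidney, heart with ovary and kidney with ovary.

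It was also asked whether, within a tissue, the 4 genes varied together from rat to rat inside a group. The test was not run on pairs of other probes, so no share over all probes stands beside the counts. Of 60 relations between members, 40 passed 0.05 by Pearson r and as many by Spearman rho, 26 of 30 in 1,2-DCB and 14 of 30 in 1,4-DCB, with adjustment over the 60. In kidney of 1,2-DCB, Dbp and Nr1d2 had r = 0.906 (rho = 0.912), Dbp and Arntl r = -0.887 (rho = -0.876), and Arntl and Npas2 r = 0.831 (rho = 0.808) over 39 rats. In heart of 1,2-DCB, Dbp and Arntl had r = -0.891 (rho = -0.884) over 40 rats, and -0.867 without rats F201 and F301. In heart of 1,4-DCB, Dbp and Nr1d2 had r = 0.838 and Dbp and Arntl r = -0.694 over 40 rats. In liver of 1,4-DCB, Dbp and Nr1d2 had r = -0.270 and Dbp and Arntl r = -0.0228, neither past 0.05, and in lung of 1,4-DCB none of the 6 relations passed 0.05 by Pearson r. In unexposed rats alone 17 of the 60 passed 0.05.

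By mean Spearman rho over the 10 sets of a tissue and a compound, of 1773 other probes that most like Dbp was Nr1d2 (0.64), followed by Herpud1 (0.29) and Cgrrf1 (0.25). Most opposite to Dbp were Arntl (-0.45), Npas2 (-0.45) and Nfil3 (-0.25). Most opposite to Nr1d2 were Arntl (-0.51), Npas2 (-0.43) and Cry1 (-0.33), and most like it after Dbp were Herpud1 (0.27) and Oas1a (0.27). Most like Arntl were LOC100912163 (0.49), LOC100362453 (0.47) and Rraga (0.45), and most like Npas2 were Arntl (0.36), Dld (0.29) and Strbp (0.27). The third most opposite were Abcc5 for Arntl (-0.41) and Dtx3l for Npas2 (-0.27). Within 1 set these values share libraries, so they are given as a description over 10 sets, without p-values.

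Of 32 other listed clock genes, 10 are on the panel, and the Per genes, Cry2, Clock, the Ror genes, Tef and Hlf are not among those read here. Nfil3, the repressor that competes with DBP for D-box motifs, fell in 3 tissues at 800 ppm of 1,4-DCB and in 2 at 500 ppm of 1,2-DCB. In kidney at 800 ppm it averaged 0.540 ± 0.293 CPM, against 3.12 ± 0.986 CPM in controls (SD, n = 5 and 10, log2 change -2.50 ± 0.36, adjusted p = 5.24e-06). In liver it averaged 3.60 ± 1.52 CPM at 800 ppm, against 9.66 ± 2.28 CPM in controls (-1.30 ± 0.22, adjusted p = 9.23e-06), and 2.44 ± 0.788 CPM at 500 ppm of 1,2-DCB, against 8.16 ± 1.68 CPM in controls (-1.57 ± 0.24, adjusted p = 2.34e-07). In lung it changed by -2.10 ± 0.45 at 800 ppm (adjusted p = 0.004) and by -1.95 ± 0.38 at 500 ppm (adjusted p = 0.000488), where it averaged 0.241 ± 0.197 CPM at 800 ppm, against 1.03 ± 0.297 CPM in controls (SD, n = 5 and 8), and 0.235 ± 0.138 CPM at 500 ppm, against 0.893 ± 0.286 CPM in controls (SD, n = 4 and 10). These lung levels rest on 0 to 25 counts per library at 800 ppm, against 35 to 80 in controls, and on 4 to 15 counts at 500 ppm, against 12 to 46 in controls.

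Nr1d1, which encodes REV-ERB alpha, rose at 800 ppm of 1,4-DCB in lung, to 3.43 ± 0.920 CPM, against 0.476 ± 0.399 CPM in controls (SD, n = 5 and 8, 2.83 ± 0.66, adjusted p = 0.0084). In kidney it was 2.97 ± 0.991 CPM at 800 ppm, against 1.13 ± 0.656 CPM in controls (1.39 ± 0.42, adjusted p = 0.045). At 500 ppm of 1,2-DCB it was not called in any tissue. Cry1, a repressor of the ARNTL complexes, was called in no tissue at the top of either compound, with changes from -0.66 to 0.64. Bhlhe40, a repressor that binds E-boxes, fell in liver at 500 ppm (-1.17 ± 0.26, adjusted p = 0.00017) and rose in lung at 500 ppm (0.43 ± 0.12, adjusted p = 0.02), in lung at 800 ppm (0.84 ± 0.15, adjusted p = 0.000542) and in kidney at 800 ppm (0.44 ± 0.13, adjusted p = 0.0359).

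Among output genes of the list, Alas1, the first enzyme of heme synthesis, rose in liver at 500 ppm of 1,2-DCB (0.95 ± 0.10, adjusted p = 9.54e-11) and at 800 ppm of 1,4-DCB (0.78 ± 0.11, adjusted p = 1.5e-07), and Por, the reductase of cytochromes P450, by 1.52 ± 0.14 (adjusted p = 1.77e-12) and 0.86 ± 0.15 (adjusted p = 1.15e-05) in the same comparisons. In kidney both rose less, Alas1 by 0.33 ± 0.11 at 500 ppm and 0.50 ± 0.10 at 800 ppm, and Por by 0.41 ± 0.11 at 500 ppm and 0.45 ± 0.10 at 800 ppm (largest adjusted p = 0.0343, edgeR). Alas1 also rose in lung, by 0.74 ± 0.17 at 500 ppm (adjusted p = 0.00304) and 0.48 ± 0.13 at 800 ppm (adjusted p = 0.0249). In heart at 500 ppm Alas1 fell (-0.54 ± 0.15, adjusted p = 0.0149) and Por rose (0.65 ± 0.13, adjusted p = 0.000311). Ccrn4l, the gene of nocturnin, rose in kidney at 800 ppm (1.04 ± 0.22, adjusted p = 0.00185), and at 500 ppm in liver (1.33 ± 0.43, adjusted p = 0.00639) and ovary (0.86 ± 0.21, adjusted p = 0.0167). Csnk1e, a kinase that acts on clock proteins, rose in liver at 500 ppm (0.63 ± 0.23, adjusted p = 0.0149). At 800 ppm, 5 of 9 listed genes tested rose and 1 fell in kidney, 2 rose and 1 fell in liver, 3 rose and 1 fell in lung, and 0 of 9 were called in heart and in ovary, where the 4 members were called. At 500 ppm, 4 of 10 rose and 2 fell in liver, 2 of 10 rose in kidney, 2 of 9 rose and 1 fell in lung, 1 of 9 rose and 1 fell in heart, and 1 of 9 rose in ovary. The shares of all probes called are those given for the top concentrations. In liver they were 67.8% at 500 ppm and 34.9% at 800 ppm, so nothing is read from the calls of listed genes there.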

How the data were processed

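The table holds raw counts per TempO-Seq probe, deposited by the authors, who aligned reads with Bowtie 1.3.1, per the submitters' processing notes. The file is named by its authors as adjusted for attenuation. The values of each of the 4 members move in steps of 1, which cannot show whether they were adjusted and then rounded. The sources used here give no further settings of alignment or counting. The submitters marked 9 of 399 libraries as failing quality control, and 390 were used, with totals of 1.20 to 69.8 M counts. No pair of libraries was identical, the highest correlation being 0.987. The assay's counts carry no molecular identifiers, so counting limits cover counting error only.

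Here, counts were scaled by TMM, filtered with filterByExpr and fitted with edgeR 4.0.16 (quasi-likelihood, robust) in R 4.3.3, 1 fit for each tissue and compound with its 7 groups, and p-values were adjusted by Benjamini-Hochberg over all probes. Counts of 2019 probes were simulated from the means of control livers of 1,2-DCB, with changes set in the group at 500 ppm. There 80% of 100 probes changed by 1 (log2) and 99% of 100 changed by 2 were recovered, and 0.55% of unchanged probes were called. Far fewer probes were changed than the 67.8% called in liver at 500 ppm, so that setting was not checked. Joint fits of tissues served for levels in controls and, as a description, for liver against other tissues. Agreement used log2 CPM with a prior count of 2, centred on group means, and permutation tests (1e+05 resamples, two-sided) in scipy 1.17.1. A number in the sample titles recurs over the tissues of a compound and was read as the rat, so it pairs the tissues. Libraries with the same number agree, with a median r of 0.986 between tissues for Cltc in 1,2-DCB. DESeq2 1.42.0, its size factors, other filters, plain library totals, the libraries marked by the submitters, a rat block and leaving out each rat were tried as alternatives. The members, lists and tests were chosen with earlier results of these data known. Other named genes are the called genes of the clock list and, for each member, the 3 probes most alike and the 3 most opposite.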

Additional observations from a re-analysis of the deposited data

Results flagged for a closer look

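In 30 of 276 groups tested, the highest or lowest rat stood further from the rest than Dixon's 95% critical value allows. Chance gives about 1 in 20 only for independent groups with normally distributed values. Here the same rats recur over tissues and genes, so nothing is read from the count. Control rat F8 of 1,2-DCB was high in Dbp in heart (317 CPM, the other 9 at 69.5 to 199 CPM), kidney (318 CPM, others at 87.2 to 164 CPM), liver (39.2 CPM) and ovary (273 CPM), and low in Arntl in ovary (23.2 CPM). Rat F104 at 1 ppm of 1,2-DCB was high in Dbp in liver (32 CPM) and ovary (169 CPM).

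Dbp was also high in liver of rat F405 at 100 ppm (61.4 CPM, others at 16.03 to 27.03 CPM) and of rat F502 at 250 ppm of 1,2-DCB (45.3 CPM), and in heart of rat F304 at 50 ppm (126.5 CPM) and rat F601 at 800 ppm of 1,4-DCB (787 CPM), and low in lung of control rat F4 of 1,4-DCB (15.9 CPM). Arntl was high in ovary of rat F601 at 800 ppm (43.2 CPM) and rat F301 at 50 ppm (120.3 CPM) and in lung of control rat F7 of 1,4-DCB (92.3 CPM), and low in liver of rat F102 at 1 ppm of 1,4-DCB (41.8 CPM). In 1,2-DCB Arntl was high in ovary of rat F103 at 1 ppm (107.2 CPM) and heart of control rat F2 (103.3 CPM), and low in liver of rat F302 at 30 ppm (48.6 CPM).

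Npas2 was high in 1,2-DCB in heart of rat F603 at 500 ppm (4.95 CPM), rat F401 at 100 ppm (22 CPM) and control rat F1 (24.6 CPM), in kidney of rat F103 at 1 ppm (25.4 CPM) and control rat F3 (26.5 CPM), and in lung of rat F102 at 1 ppm (33.5 CPM) and control rat F7 (33.5 CPM). Nr1d2 was low in liver of rat F503 at 250 ppm (15.3 CPM) and ovary of rat F401 at 100 ppm of 1,2-DCB (20.2 CPM), and high in liver of rat F202 at 10 ppm (40.1 CPM) and ovary of rat F105 at 1 ppm of 1,4-DCB (36.5 CPM).

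Among lung libraries that the submitters marked and that no comparison used, 9 values lay above every control used. In rats F502 and F504 at 400 ppm of 1,4-DCB, with totals near those of the libraries used, Dbp was 25.96 and 72.4 CPM, against 16.8 to 24.8 CPM in controls, and Npas2 was 39.6 and 30.4 CPM, against 23.1 to 28.4 CPM. Arntl was 108.97 CPM in rat F502, against 40.4 to 98.3 CPM in controls. The other values rest on few counts: Dbp at 99.2 CPM (28 counts) in rat F204 at 10 ppm and 47.6 CPM (10 counts) in rat F402 at 150 ppm of 1,4-DCB, Dbp at 62.1 CPM (39 counts) in rat F601 at 500 ppm of 1,2-DCB, and Npas2 at 34.5 CPM (1 count of 7685) in rat F102 at 1 ppm of 1,4-DCB. Other values of these libraries lay below every control on few counts, with Arntl at 17.7 CPM (5 counts) and Npas2 at 14.2 CPM (4 counts) in rat F204, and Arntl at 23.8 CPM (5 counts) and Npas2 at 19.05 CPM (4 counts) in rat F402. In rat F601 at 500 ppm Npas2 was below every control at 20.7 CPM (13 counts), while Arntl at 31.8 CPM (20 counts) and Nr1d2 at 14.3 CPM (9 counts) were inside the controls. In rat F102 the other 3 genes had 0 counts. Marked control lungs of 1,4-DCB had 86.5 CPM of Dbp on 20 counts and 34.9 CPM on 7 counts.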

How the results depend on the processing

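Plain library totals, an alternative chosen after seeing the data, turned the direction of 12 called differences between control tissues, and the cause was not tested. In 1,4-DCB these became 2.33 for Npas2 heart over liver, -0.39 for Arntl heart over lung, -0.028 for Nr1d2 heart over ovary, 2.45 for Arntl kidney over liver and -3.00 for Arntl liver over lung. In 1,2-DCB they became 2.45 (Arntl) and 2.31 (Npas2) for heart over liver, 2.08 (Arntl) and 2.38 (Npas2) for kidney over liver, -0.34 for Nr1d2 kidney over ovary, and -2.60 and -3.30 for Arntl liver over lung and over ovary. Calls between control tissues numbered 36 in 1,4-DCB with plain totals, against 22, and 1 call appeared between the controls of the compounds. Under the other alternatives no called difference turned. Calls of the members against controls numbered 18 to 21 in 1,2-DCB and 21 to 23 in 1,4-DCB over all alternatives. Leaving out each rat ended the call of a member in 12 cases, named beside the results. For liver minus other tissues, a description, 5 to 8 differences were past 0.05 in 1,2-DCB and 12 to 15 in 1,4-DCB without 1 rat, where other settings gave 8 to 10 in 1,2-DCB and 10 to 16 in 1,4-DCB. Relations between members in unexposed rats alone numbered 17, against 40, with fewer rats. With the marked libraries included, the median r of Dbp between tissues in 1,4-DCB was -0.0011, against 0.328. With the rat as a block there were 25 calls between control tissues in each compound and 10 (1,2-DCB) and 16 (1,4-DCB) liver differences, and the block ended no call. Across compounds rats share only a number (median r of -0.0476 to 0.0996), and with that number as a block 0 differences of controls and 0 at 1 and 10 ppm were called. Low counts limit Nfil3 in lung and Npas2 in liver at 500 ppm, where exposed libraries held 4 to 15 and 18 to 43 counts.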
